A study of Mus musculus with 2 samples.

Results

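The 6 RNAs described here are long non-coding RNAs of mouse dorsal root ganglia: Malat1, Neat1 and Miat, which act in the nucleus, and Snhg11, Snhg14 and Gas5, which carry small nucleolar RNAs (snoRNAs) in their introns. They are 6 of the 23282 rows in the count files, found by gene symbol. Their symbols were chosen by a selection that had the AEW and water counts of these same libraries, and the ratio between them, in view. Ganglia, which hold the cell bodies of sensory neurons, came from wild-type mice whose skin was dried chemically with an acetone and ether mixture and then water (AEW), which models itch of dry skin, and from wild-type mice given water. Treatment ran on 5 consecutive days and ganglia were taken on day 6. RNA of 6 mice per group was pooled and sequenced as 1 library, so every difference below compares 1 pool with 1 pool and has no replicate check. The AEW library held 14376228 counts and the water library 9333882. Neither age nor sex of the mice is stated in the labels.

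Long non-coding RNAs of the nucleus work largely as scaffolds. Malat1 is held in nuclear speckles, where splicing factors gather, and its close neighbour Neat1 is the architectural RNA of paraspeckles, bodies that retain RNAs and RNA-binding proteins and grow when a cell is stressed. Miat, also called Gomafu, is a nuclear RNA found mainly in neurons that binds splicing factors. Host RNAs are spliced to release snoRNAs, which guide chemical modification of ribosomal and other RNAs, and the spliced remainder is often short-lived. Gas5 is known as a host RNA whose transcripts can start with a pyrimidine tract of the kind found on messenger RNAs of the translation machinery, and its spliced form is degraded by nonsense-mediated decay. Snhg14 is the long transcript of the imprinted Snrpn to Ube3a region that silences paternal Ube3a in neurons, and Snhg11 is a host RNA enriched in neurons.

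The ends of these RNAs are shown first because QuantSeq kits in their usual form start from oligo(dT), and Malat1 and the long form of Neat1 are known to end without a poly(A) tail. All transcript sequences are GENCODE M21 models on mm10. The longest transcript of Neat1 and the stretch of the longest Malat1 transcript from base 6632 to base 6691 share a run of 16 bases rich in T and a run of 11 bases rich in A, in capitals below. In Malat1 these stretches are known to fold into a triple helix that protects the end left when a tRNA-like piece is cut off.
Neat1 longest transcript, last 60 bases: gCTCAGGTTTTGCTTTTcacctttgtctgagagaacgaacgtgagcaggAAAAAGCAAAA
Malat1 longest transcript, bases 6632 to 6691: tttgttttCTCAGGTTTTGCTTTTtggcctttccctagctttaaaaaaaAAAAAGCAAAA
Searched on the transcript strand, both runs lay within 60 bases of each other in 2 of 131058 transcripts of at least 300 bases (0.00153%). Those 2 are the transcripts printed above, from which the runs were taken, so their match was fixed beforehand. AAAAAGCAAAA alone was held by 0.471%. The longest run of A in the longest Malat1 transcript was 12 bases, against 17 in Snhg14-211, 8 in Snhg11, 7 in the long Neat1 and 4 in Miat-205.

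The other ends printed here carried a poly(A) signal, AATAAA or ATTAAA, in capitals. Ends of the remaining annotated transcripts of these RNAs were not examined singly. Among all transcripts of at least 300 bases, 36.8% held either signal in their last 60 bases.
Neat1-202 last 60 bases: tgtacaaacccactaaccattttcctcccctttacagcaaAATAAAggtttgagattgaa
Malat1 longest transcript, last 60 bases: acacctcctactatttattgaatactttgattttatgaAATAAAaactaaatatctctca
Snhg11 longest transcript, last 60 bases: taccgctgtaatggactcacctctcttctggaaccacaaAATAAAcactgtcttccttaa
Snhg14-211 last 60 bases: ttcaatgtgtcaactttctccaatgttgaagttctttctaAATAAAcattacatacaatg
Miat-205 last 60 bases: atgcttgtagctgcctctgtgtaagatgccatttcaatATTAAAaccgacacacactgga
Gas5-218 last 60 bases: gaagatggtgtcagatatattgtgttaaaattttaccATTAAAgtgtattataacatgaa
Neat1-202 is the short polyadenylated form, 3004 bases against 20771 for the long form. The count files give 1 row for Neat1, so its forms cannot be told apart.

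Counts were scaled to CPM (counts per 1000000 counts) with edgeR's TMM factors, and each CPM is given with its exact 95% Poisson interval. The intervals cover counting error only, since each group has 1 library. They can be too narrow even for that, since PCR copies of a molecule cannot be told from separate molecules in these files. An RNA is called higher or lower where AEW and water CPM differed by at least 1.5-fold, a rule of size and not a test. Of 14854 genes that reached 20 counts over both libraries, 19.3% were higher and 16.9% lower by that rule. Of the 6 RNAs, 1 was higher (Snhg11), 4 were lower (Neat1, Snhg14, Malat1 and Gas5) and Miat was neither. At 2-fold, which 8.68% of genes passed as higher and 7.17% as lower, 0 of the 6 RNAs were higher and 1, Neat1, was lower. The RNAs were chosen with these ratios known, so these counts are a description and nothing is read from them. In bulk tissue, fewer cells of a type and less RNA per cell cannot be told apart.

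**Figure D1:**
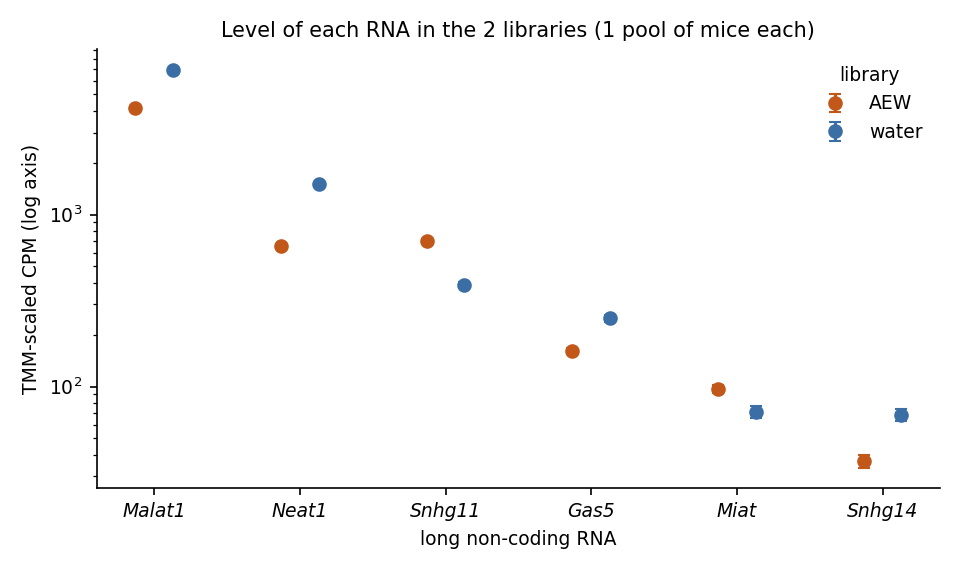
Level of each RNA in TMM-scaled CPM on a log axis, with the AEW library in orange left of the water library in blue; bars are 95% Poisson intervals and are mostly narrower than the points. Malat1 is at 4180 CPM in the AEW library and 6952 CPM in the water library, and Snhg11 and Miat are the RNAs whose AEW point lies above the water point.

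Malat1 (ENSMUSG00000092341.3, chromosome 19, 5795690 to 5802672, minus strand, mm10) was the most abundant of the 6. It had 61953 counts in the AEW library and 62946 in the water library, or 4180 CPM (4147 to 4213) in AEW and 6952 CPM (6898 to 7007) in water. Among all rows it ranked 11 in the AEW library and 8 in the water library, and took 0.431% of AEW counts against 0.674% of water counts. The ratio was 0.60 (95% counting interval 0.59 to 0.61), which is 1.66-fold lower. Setting Malat1 against genes of the same whole-transcript GC content left a log2 ratio of -0.58, just short of 1.5-fold, where TMM alone gave -0.73. Against genes of the same GC content in the last 500 bases Malat1 was at -0.72, still called lower.

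Neat1 (ENSMUSG00000092274.3, chromosome 19, 5824708 to 5845478, minus strand) had the lowest ratio of the 6. Its 9710 counts in the AEW library and 13662 in the water library gave 655 CPM (642 to 668) in AEW and 1509 CPM (1484 to 1534) in water. The ratio of 0.43 (0.42 to 0.45) is 2.30-fold lower, and its rank among rows was 153 in the AEW library and 42 in the water library. Neat1 and Malat1 lie 22036 bases apart on the same strand, yet their counts did not keep the same proportion. For every 100 Malat1 counts there were 15.7 Neat1 counts (15.3 to 16.0) in the AEW library and 21.7 (21.3 to 22.1) in the water library, a quotient that no library scaling can change.

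Frmd8, 4224 bases beyond Neat1 and on the same strand, was 1.73-fold lower at 489 AEW counts and 518 water counts.

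RNAs that encode proteins of paraspeckles and speckles mostly stayed within 1.5-fold, and the proteins themselves were not measured. Most of all genes stayed within it too, with 19.3% higher and 16.9% lower. Of 30 measured genes for paraspeckle proteins, 5 were lower, 0 were higher and 25 were neither. Their median log2 ratio was -0.32, beside 0.03 over all genes. The share that was lower is near that of all genes (16.9%), and with total-count scaling 1 of the 30 was lower. The lowest was Rbm12, at 127 AEW counts and 167 water counts (2.15-fold lower), then Matr3, a nuclear matrix protein, at 1.59-fold lower. Cpsf7, a subunit of the 3' end cleavage machinery, had a ratio of 1.34 and Smarca4, a chromatin remodelling ATPase, 1.28, both under the threshold. Of 27 genes for speckle and SR proteins, the splicing machinery's store, 2 were higher, 1 was lower and 24 were neither (median -0.23). Srsf4, a splicing factor, was 2.78-fold higher (2.08 to 3.77) at 259 AEW counts and 57 water counts, and Prpf6, a spliceosome subunit, 1.55-fold higher (1.37 to 1.75). Clk4, a kinase of SR proteins, was 1.60-fold lower, and Srsf9 had a ratio of 0.71.

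Miat (ENSMUSG00000097767.8, chromosome 5, 112213228 to 112229395, minus strand) is known for repeats of ACTAAC, which resemble the intron branch point bound by the splicing factor Sf1. Miat-205 held 11 of them in 9163 bases, 1.20 per kb, against 0.193 per kb in the long Neat1 and none in the longest Malat1 transcript. Of 7040 transcripts of at least 5000 bases, 3 reached that density on the transcript strand, Miat-205 included, and 1.55% of 140-base windows in such transcripts held the motif at all. The window with the most repeats, 4 in 140 bases, is printed to show their spacing, with ACTAAC in capitals.
Miat-205 bases 4933 to 5072: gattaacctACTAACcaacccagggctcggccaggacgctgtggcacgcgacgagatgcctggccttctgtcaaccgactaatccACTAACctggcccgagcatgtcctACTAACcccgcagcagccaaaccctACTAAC
Miat had 1429 counts in the AEW library and 643 in the water library, which is 96.4 CPM (91.5 to 102) in AEW and 71.0 CPM (65.6 to 76.7) in water. The ratio of 1.36 (1.24 to 1.49) was above 1 over its whole counting interval and under the 1.5-fold threshold. Genes for 7 splicing factors reported to bind Miat or its motif were measured. Of these, 1 was higher, Celf3 at 2.54-fold (1.78 to 3.70), and 1 was lower, Qk at 1.84-fold. Over all genes 19.3% were higher and 16.9% lower, near 1 of 7, so nothing is read from these calls. Qk is an RNA-binding protein of myelinating glia and Celf3 a neuronal one. Sf1 had a ratio of 1.08 (1.01 to 1.14) and Srsf1 0.81. The nearest genes with a row, Mn1 at a distance of 756195 bases and Cryba4 at 17098 bases, had ratios of 1.45 (0.95 to 2.27) and 1.15 (0.46 to 3.12), too few counts to place them against 1.5-fold.

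Snhg11 (ENSMUSG00000044349.15, chromosome 2, 158375638 to 158386145, plus strand) was the only RNA of the 6 called higher. GENCODE M21 types its gene as protein-coding and RefSeq as a long non-coding RNA. It had 10414 counts in the AEW library and 3539 in the water library, or 703 CPM (689 to 716) in AEW and 391 CPM (378 to 404) in water. The ratio was 1.80 (1.73 to 1.87). Its rank among rows was 139 in the AEW library and 315 in the water library. Per 100 Malat1 counts there were 16.8 Snhg11 counts (16.5 to 17.2) in the AEW library and 5.62 (5.43 to 5.82) in the water library. Its neighbours did not move with it past 1.5-fold, since Ralgapb had a ratio of 1.13 (1.01 to 1.26) and Snhg17, itself a host RNA on the opposite strand, 0.75 (0.48 to 1.18) at 48 AEW counts and 39 water counts.

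Markers of neurons in general were higher in the same library. The 20 pan-neuronal markers took 1.65% of AEW counts and 0.983% of water counts, a scaled ratio of 1.58 for their sum. Of these markers 13 were higher, 0 lower and 7 neither, where 19.3% of all genes were higher and 16.9% lower. Per 1000 pan-neuronal counts there were 43.9 Snhg11 counts in the AEW library and 38.6 in the water library, a quotient of 1.14. On the same measure Miat had 6.02 in the AEW library and 7.01 in the water library (0.86), so the order of its libraries turned. Malat1 had 261 in the AEW library and 686 in the water library, and Neat1 40.9 in the AEW library and 149 in the water library.

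Snhg14 (ENSMUSG00000100826.6, chromosome 7, 59307924 to 59975759, minus strand) had the fewest counts of the 6 in both libraries. It had 543 counts in the AEW library and 622 in the water library, 36.6 CPM (33.6 to 39.9) in AEW and 68.7 CPM (63.4 to 74.3) in water. The ratio of 0.53 (0.47 to 0.60) is 1.88-fold lower. A separate row under an older name of this RNA, C230091D08Rik, had 180 AEW counts and 165 water counts, and the rows together were 1.78-fold lower. GENCODE places 208 snoRNA genes within Snhg14. The 2 snoRNA rows that lie there and could be matched by name had at most 1 count in either library.

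Protein-coding genes at the start of the same region were higher in the AEW library. Snurf and Snrpn, which share a promoter region with Snhg14 on the paternal allele, had 9426 and 9348 counts in the AEW library, against 2288 and 2251 in the water library. Snurf was 2.52-fold and Snrpn 2.54-fold higher, but the near-equal counts leave them uncertain as separate genes, since they overlap. RefSeq extends Snhg14 to position 60450177, which takes in both on the same strand, so reads there could be given to either. For every 100 Snrpn counts there were 5.81 Snhg14 counts (5.32 to 6.33) in the AEW library and 27.6 (25.2 to 30.2) in the water library. Ube3a, the ubiquitin ligase gene that Snhg14 runs into from the opposite strand, had a ratio of 0.84 (0.79 to 0.90). Whether counting used strand is not given in the sources, so reads of Snhg14 and Ube3a cannot be told apart where they overlap. Ndn, an imprinted gene of the same region, had a ratio of 0.82, and Atp10a 0.70 (0.48 to 1.02). Of the 6 measured genes of the region besides Snhg14, 2 were higher, 1 was lower and 3 were neither, where 19.3% of all genes were higher and 16.9% lower. The lower one was Mkrn3, at 12 AEW counts and 15 water counts, named after its values were seen.

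Gas5 (ENSMUSG00000053332.13, chromosome 1, 161034422 to 161038539, plus strand) had 2391 counts in the AEW library and 2254 in the water library. Scaled, that is 161 CPM (155 to 168) in AEW and 249 CPM (239 to 259) in water. The ratio was 0.65 (0.61 to 0.69), or 1.54-fold lower, the called value nearest to the threshold. Its log2 ratio of -0.63 became -0.54 with total counts, -0.47 against genes of the same whole-transcript GC content and -0.44 against those of the same GC content at the end, none of which reaches 1.5-fold. Gas5 holds 10 annotated snoRNA genes, of which Snord47 had a row, with 3 counts in each library. There were 3.86 Gas5 counts (3.70 to 4.02) per 100 Malat1 counts in the AEW library and 3.58 (3.43 to 3.73) in the water library, a quotient of 1.08. Zbtb37, which overlaps the start of Gas5 on the opposite strand, had 10 AEW counts and 12 water counts.

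A start of Gas5 that has the pyrimidine run is printed beside those of Snhg11 and Miat to show what the run looks like and a start without it. Windows are from RefSeq (GRCm38.p6), and each runs from 30 bases before the annotated start. Capitals mark a C followed by at least 4 pyrimidines at the start, or the start base alone where there is no such run.
Gas5 second start, chr1:161035136-161035195, plus strand: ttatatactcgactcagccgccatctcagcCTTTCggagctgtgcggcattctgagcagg
Miat start, chr5:112228919-112228978, minus strand: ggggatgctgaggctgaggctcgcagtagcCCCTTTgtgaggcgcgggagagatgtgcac
Snhg11 start, chr2:158375683-158375742, plus strand: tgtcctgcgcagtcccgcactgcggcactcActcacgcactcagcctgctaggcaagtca
Such a run begins 2.51% of 32851 RefSeq start windows on the gene's strand, and 5 of the 25 annotated Gas5 transcripts. Miat matches by these letters as well, so the match does not separate the host RNAs. The other RefSeq start of Gas5 and those of Snhg14 and Malat1 have no such run.

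Gas5, Snhg14 and Snhg11 stand on a list of 21 host RNAs, all measured, of which 10 were lower, 3 higher and 8 neither. Beside that, 16.9% of all genes were lower and 19.3% higher, and of long non-coding RNAs in RefSeq 29.7% were lower and 19.9% higher. The list does not hold every host, since Rian, which was 1.80-fold higher, was listed with other long non-coding RNAs. Without Gas5, Snhg11 and Snhg14, 8 of 18 were lower and 2 higher, with a median log2 ratio of -0.48, where all genes had 0.03. Snhg1 was 3.17-fold lower (265 AEW counts, 513 water counts) and Snhg18 2.72-fold lower (626 AEW counts, 1040 water counts). Snhg4 was 1.79-fold higher (1.23 to 2.64) at 114 AEW counts and 39 water counts. Snhg15, listed under the older name Gm11974, was 1.58-fold higher, with a counting interval of 0.89 to 2.95 that includes 1. The list's summed counts did not follow its median, with a scaled ratio of 0.99 (0.97 to 1.02), since Snhg11 alone supplied 10414 of its 17132 AEW counts and 3539 of its 10536 water counts.

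**Figure D2:**
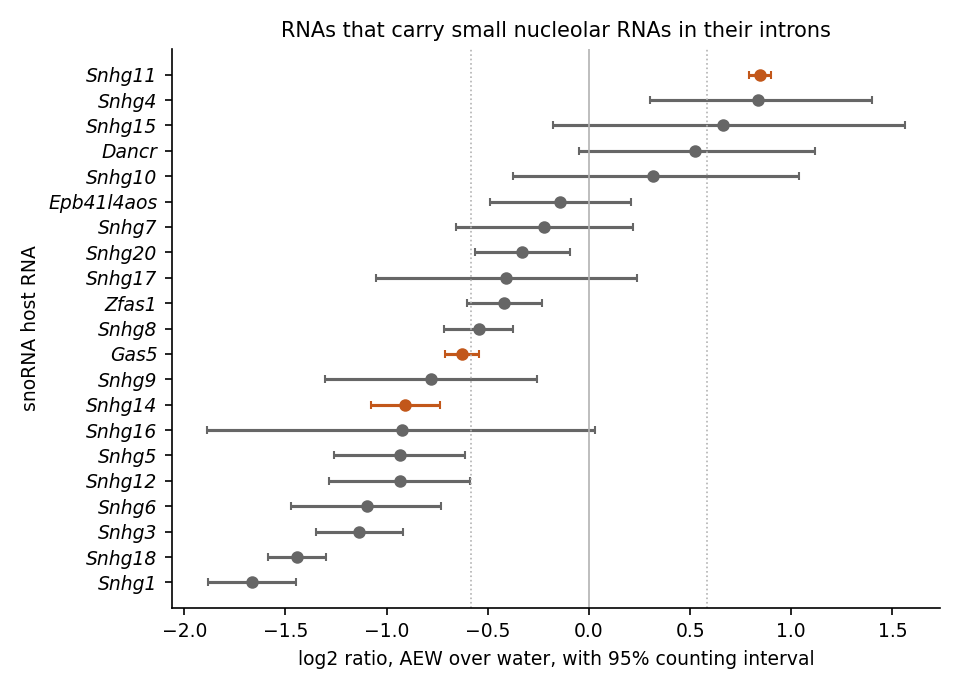
Log2 ratio of AEW to water for 21 host RNAs, with 95% counting intervals; Snhg11, Gas5 and Snhg14 are in orange, the others in grey, and dotted lines mark 1.5-fold. Snhg11 stands at the top at 0.85, and Snhg1 at the bottom at -1.66.

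Most genes in the groups that host RNAs are tied to by function stayed within 1.5-fold. So did most of all genes, of which 19.3% were higher and 16.9% lower. Box C/D snoRNPs are the particles that snoRNAs of Gas5 and Snhg14 join. All 10 measured genes for their proteins or assembly factors were neither (median 0.18). Ratios ran from 0.70 for Nufip1 to 1.39 for Nop56, which encodes a core protein. Of 17 translation genes with a 5' terminal oligopyrimidine tract, ribosomal proteins left out, 1 was lower and 16 were neither (median -0.18). Tpt1, which encodes a growth-linked cytosolic protein, was 1.53-fold lower, and Eif4b, an initiation factor, had a ratio of 1.27. Genes for nonsense-mediated decay factors had 1 of 14 higher, Smg8, and 1 lower, that of the kinase Smg1 at 1.58-fold (median 0.15). Rbm8a of the exon junction complex had a ratio of 1.40 and its partner Magoh 0.68.

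Per length of the longest annotated transcript, the order of the 6 RNAs differed between the libraries. Reads of a 3' end library do not grow in number with transcript length, so this scale lowers long RNAs such as Neat1. In the AEW library it was Malat1 at 599 CPM per kb, Snhg11 at 120, Gas5 at 63.1, Neat1 at 31.5, Miat at 10.5 and Snhg14 at 5.34. In the water library it was Malat1 at 996 CPM per kb, Gas5 at 97.4, Neat1 at 72.6, Snhg11 at 66.7, Snhg14 at 10.01 and Miat at 7.75. On the length of the short Neat1-202, Neat1 came to 218 CPM per kb in the AEW library and 502 in the water library, which puts it second in both. With 1 library per group there is no spread between samples to say which neighbours in these orders differ.

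Long non-coding RNAs as a class had a larger share of lower calls than all genes, of which 16.9% were lower and 19.3% higher. Of 512 measured rows that RefSeq annotates as long non-coding RNA, 19.9% were higher and 29.7% lower, with a median log2 ratio of -0.17. Among the 31 with a summed count of at least 1000, Snhg11 had the third highest ratio and Neat1 the third lowest, with 5 higher and 9 lower in all. All 6 RNAs are among these 31 and, chosen with their ratios known, supply 1 of the 5 and 4 of the 9. The median log2 ratio of those 31 was 0.05, so the negative median of the class did not hold among its abundant rows. From a list of other long non-coding RNAs, 20 were measured, of which 2 were higher and 4 lower, and Epb41l4aos among them also stands on the host list. Rian, an imprinted RNA that hosts snoRNAs, was 1.80-fold higher at 1762 AEW counts and 597 water counts, and Pvt1 1.83-fold (1.06 to 3.32) at 54 AEW counts and 18 water counts. Oip5os1, a microRNA-binding RNA also known as Cyrano, was 1.92-fold lower and Trp53cor1, a p53-induced RNA, 1.89-fold lower at 26 AEW counts and 30 water counts.

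**Figure D3:**
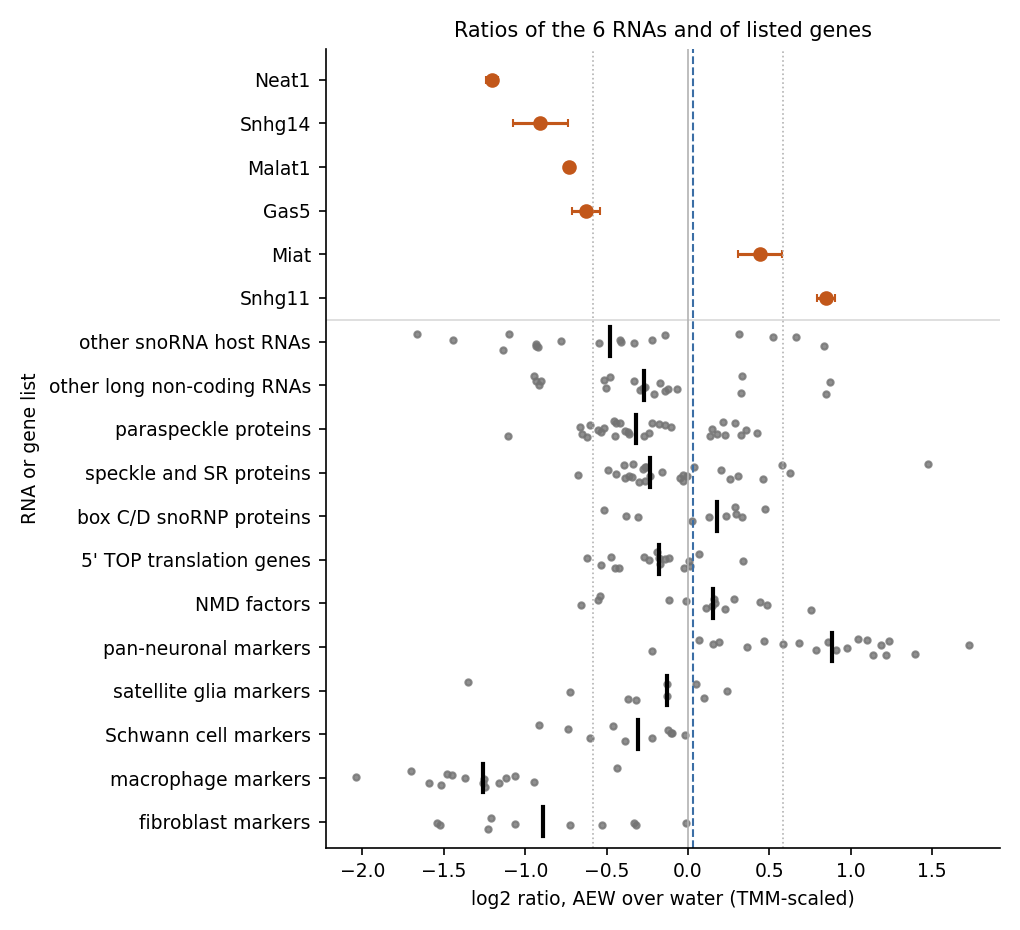
Log2 ratio of AEW to water for the 6 RNAs (orange, with 95% counting intervals) and for measured genes of 12 lists without those RNAs (grey points, black bars are medians); the blue dashed line is the median of all genes at 0.03 and dotted lines mark 1.5-fold. Macrophage markers have a median of -1.26, fibroblast markers -0.89 and pan-neuronal markers 0.88, and the lists not drawn include skin epithelium at 5.28 and skeletal muscle at -1.31.

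Markers of several cell types differed between the libraries, and their part in the values of the 6 RNAs was not tested. The labels name the cell type as neurons, but markers of Schwann cells took 1.79% of AEW counts and 2.0% of water counts, and those of red blood cells 4.32% of AEW counts and 6.79% of water counts, so both libraries held more than neurons. Macrophage markers were lower in 14 of 15 (0.0373% of AEW counts, 0.0918% of water counts) and fibroblast markers in 6 of 10 (0.816% of AEW counts, 1.56% of water counts). Schwann cell markers were lower in 3 of 10, satellite glia markers in 2 of 9 and endothelial markers in 3 of 10, with none higher. By the same rule 16.9% of all genes were lower and 19.3% higher, so little is read from counts such as 2 of 9 or 3 of 10. Of red blood cell markers all 8 were lower, and of skeletal muscle markers 8 of 10. All 14 skin epithelium markers were higher, at 0.0914% of AEW counts and 0.00336% of water counts, with 2 of them at 0 in the water library and none at 0 in the AEW library. No other list of cell type markers had a member at 0.

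Genes with the levels nearest to each RNA were found by distance between log2 CPM in both libraries, a likeness over 2 libraries only. Snhg11 lay nearest to Map7d2 and Fxyd2, Miat to Pak1 and Hn1, and Gas5 to Bloc1s1 and Ppap2b, all within 0.08. Snhg14 lay nearest to Sprr1a and Mier1. Neat1 was 0.096 from Rplp1, a ribosomal protein gene, and 0.40 from Vim, and Malat1 was 0.45 from Apoe and 0.47 from Tmsb4x.

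Library scalings move the log2 ratios of the 6 RNAs by the same amount. With log2 ratios under TMM of -1.20 for Neat1 and 0.85 for Snhg11, total counts gave -1.12 and 0.93 and DESeq2 size factors -1.21 and 0.83.

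**Figure D4:**
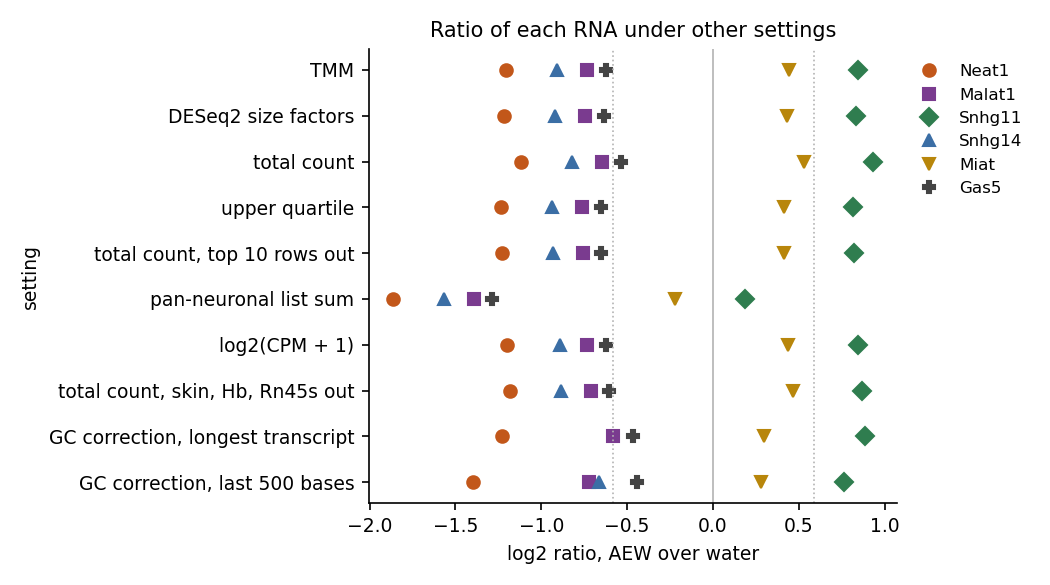
Log2 ratio of AEW to water for the 6 RNAs under TMM scaling (top) and 9 other settings; dotted lines mark 1.5-fold. Scaling on pan-neuronal markers moves all 6 to the left, with Snhg11 at 0.19 and Neat1 at -1.86, and Snhg14 has no value under the whole-transcript GC correction.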

How the data were processed

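A single pool of ganglia from 6 mice was sequenced per group, after QuantSeq library preparation (Lexogen) with 500 ng of RNA, per the labels' protocols. The deposited values are raw read counts, a whole number for each gene symbol. Bowtie2, bedtools and mm10 appear in the submitters' processing notes. Versions, the annotation, the use of strand and the handling of duplicates or of reads with several matches were not given in the sources used here.

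Library sizes were scaled with TMM (edgeR 4.0.16, R 4.3.3), with factors of 1.03 for AEW and 0.970 for water. Ratios have exact 95% conditional binomial (Clopper-Pearson) intervals, computed with scipy 1.17.1. A gene was measured at a summed count of at least 20, and called at 1.5-fold. The floor for a count of 0 was 3 counts, or 0.202 CPM for AEW and 0.331 CPM for water. No p-value was computed. In all, 35 symbols on more than 1 row (79 rows) were left out of counts of genes and lists. The ratio and interval step was tested on simulated counts with Poisson error only. That checks the arithmetic and says nothing about spread between mice or PCR copies.

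The 6 RNAs and the 18 gene lists were chosen with earlier results of these data known. Of 289 listed symbols, 277 matched a row, 10 of them by an older symbol in RefSeq (GRCm38.p6), which also gave the long non-coding RNA annotation. Named genes are the 6 RNAs, up to 2 with the highest and 2 with the lowest ratio per list at a summed count of at least 50 (summaries only for cell types), the nearest annotated gene with a row on each side, and the 2 genes nearest in log2 CPM. Some genes that this rule names are not reported here. Coordinates are 1-based, from GENCODE M21. Alternatives were DESeq2 1.42.0 size factors, total count, upper quartile, total count without the 10 most abundant rows, pan-neuronal scaling, other count minimums, 2-fold, and log2(CPM + 1). After the data were seen, GC corrections and a total without skin, haemoglobin and Rn45s rows were added.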

Additional observations from a re-analysis of the deposited data

How the results depend on the processing

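No paired analysis was possible because each group has 1 library. The directions of all 6 RNAs held under the scalings by DESeq2 size factors, total count, upper quartile and total count without the 10 most abundant rows, and under log2(CPM + 1). Scaling on the pan-neuronal list shifted the log2 median of all genes by -0.66. On that scale the log2 ratios were -1.86 for Neat1, -1.39 for Malat1, 0.19 for Snhg11, -1.57 for Snhg14, -0.22 for Miat, which changed sign, and -1.29 for Gas5. None of the 6 was then higher (0), and 845 genes were higher and 7881 lower. Of the host RNAs, 0 were then higher and 16 lower, with a median of -1.21. With total counts the values were -1.12 for Neat1, -0.65 for Malat1, 0.93 for Snhg11 and -0.54 for Gas5, which was then not called. Malat1 was at -0.76 both with the upper quartile and without the 10 most abundant rows, and at -0.71 without skin, haemoglobin and Rn45s rows.

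Subtracting the median of genes of the same whole-transcript GC content (within 2 percentage points) left Malat1 at -0.58, Gas5 at -0.47 and Miat at 0.29, so that 1 RNA was lower, Neat1. Snhg14, at 31.0% GC, had too few such genes for a value. With the GC content of the last 500 bases, Neat1 was at -1.40, Malat1 at -0.72 and Snhg14 at -0.67, and these 3 were lower. Snhg11 was then at 0.76, Miat at 0.28 and Gas5 at -0.44. The cause was not tested.

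At 2-fold, 0 of the 6 RNAs were higher and 1 was lower, where 1289 genes (8.68%) were higher and 1065 (7.17%) lower, and 0 host RNAs were higher and 4 lower. With a summed count of at least 1, 4079 genes were lower, and with at least 100, 1623. The median of the host RNAs was -0.63 with at least 100. Under pan-neuronal scaling the medians of the genes listed for box C/D snoRNPs and for nonsense-mediated decay turned negative, at -0.48 and -0.51. Genes with few counts, such as Snhg15 and Smg8, are limited by depth, as their intervals show.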
